A study of Mus musculus with 7 samples.

Results

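The 10 genes described here encode enzymes, other than glutathione transferases, that oxidise or reduce aldehydes derived from lipids. They were chosen by gene symbol: the aldehyde dehydrogenases Aldh1a1, Aldh2, Aldh3a1, Aldh3a2, Aldh7a1 and Aldh9a1, the aldo-keto reductases Akr1a1, Akr1b3 and Akr1b8, and the alcohol dehydrogenase Adh5. All 10 were found among the 21861 rows of a table of read counts from mouse retinal pigment epithelium (RPE), the pigmented layer behind the photoreceptors, and all 10 passed the filter on low counts that left 15075 genes for testing. The mice were aged and carried an AAV (adeno-associated virus) vector for either GFP, 3 libraries, or the glutathione transferase GSTA4, 4 libraries, given 12 weeks before the RPE was taken. Every library therefore came from aged, vector-treated tissue, and untreated or young tissue was not analysed here. The labels give no strain, sex, vector promoter or dose and do not say whether a library is 1 eye, 1 mouse or a pool, so p-values measure the spread between these libraries, which may be partly technical.

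Peroxidation of polyunsaturated fatty acids yields reactive aldehydes such as 4-hydroxynonenal, malondialdehyde and acrolein. Cells remove them along parallel routes: conjugation to glutathione by glutathione transferases, oxidation to carboxylic acids by aldehyde dehydrogenases, and reduction to alcohols by aldo-keto reductases and related enzymes. GSTA4 serves the first route, and the genes here serve the other routes. The RPE takes up lipid-rich photoreceptor outer segments daily under light and high oxygen, and retinaldehyde, itself a substrate of some of these enzymes, passes through it in the visual cycle.

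The libraries held 15329181 to 28998964 counts. Levels are given as CPM, read counts scaled to library size with edgeR's TMM (trimmed mean of M-values) factors. The transgene row hGSTA4 lay between 0.0386 and 0.14 CPM in AAV-GFP, and AAV-GSTA4 replicates 1 to 4 had 221.5, 251, 2.65 and 43.7 CPM, so the groups did not overlap. Its adjusted p was 0.363 in edgeR's test, 0.0173 in that test without AAV-GSTA4 replicate 3, and 1.89e-09 in DESeq2. The reporter row d2EGFP did overlap: AAV-GFP replicate 1 had 4.61 CPM, below the 8.58 CPM of AAV-GSTA4 replicate 1, whereas AAV-GFP replicates 2 and 3 had 153 and 113 CPM. Mouse Gsta4 itself was at 282 to 711 CPM in AAV-GFP and at 353.5 to 662 CPM in AAV-GSTA4. All 15 RPE markers examined were detected in every library, with Rpe65 between 1767 and 11830 CPM, although Best1 was at 1.15 to 3.32 CPM. AAV-GFP replicate 3 stood apart: its log2 CPM correlated on average at 0.838 with the other libraries, against 0.909 to 0.926 for each of these. It had the lowest summed RPE markers (12380 CPM, against 29820 to 52420 CPM in the others) and the highest summed rod photoreceptor markers (41960 CPM, against 7732 to 25640 CPM). The rod markers were lower in AAV-GSTA4 (7732 to 14410 CPM) than in AAV-GFP (15320 to 41960 CPM) without overlap. Of 15 rod markers, 14 had a lower mean at an unadjusted p under 0.05 in edgeR's test, against 6.63% of all genes tested. Summed Müller glia and astrocyte markers were higher without overlap (4747 to 6540 CPM in AAV-GFP and 7916 to 9945 CPM in AAV-GSTA4). These 10 markers did not move together: their median log2 fold change was 0.04, with 1 higher and 1 lower at such a p. Gfap was at 0.03 and Aqp4 at -0.85. Of 15 RPE markers, 5 had a higher mean at such a p, against 5.27% of all genes tested. So did 7 of 13 tested lens markers, with a median log2 fold change of 2.61. Their sums overlapped, at 3168 to 13890 CPM in AAV-GFP and 4832 to 135300 CPM in AAV-GSTA4. Of 9 cone markers, 4 had a lower mean at such a p, with a median log2 fold change of -1.01. In tissue of mixed cells, fewer cells of a type and less RNA per cell cannot be told apart.

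For none of the 10 enzyme transcripts was a difference between AAV-GSTA4 and AAV-GFP detected beyond the spread of the libraries. Adh5, Aldh2, Aldh9a1, Aldh3a2, Akr1a1 and Aldh7a1 had higher means in AAV-GSTA4, with fitted folds from 1.23 to 1.49. Aldh3a1, Akr1b8 and Aldh1a1 had lower means, with fitted folds from 0.522 to 0.631, and Akr1b3 was at 0.959-fold. Aldh3a1 varied 18.9-fold between libraries, whereas Aldh3a2, Aldh7a1 and Akr1b3 varied 1.47-fold to 1.49-fold. After Benjamini-Hochberg adjustment, 0 of the 10 passed an adjusted p of 0.05 in edgeR's quasi-likelihood test, as did 0 (0%) of all 15075 genes. At an unadjusted p under 0.05 there were 0 of 10, against 11.9% of all genes. DESeq2 called 2.00% of the genes to which it gave an adjusted p, and 0 of the enzymes; it gave none for Akr1b8. The median log2 fold change of the 10 was 0.31, and that of all genes tested was -0.07.

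The scaling mattered for where zero lies. When library totals were used instead, the median over all genes was -0.37 on the log2 scale and that of the 10 enzymes was 0.04, so relative to all genes the enzymes were 0.38 higher with TMM and 0.41 higher with library totals. The signs were the same for all 10 under both scalings. With the summed rod markers as a covariate, the median of the 10 was -0.003 and that of all genes 0.02, and Akr1a1 was at -0.009. The summed rod markers did not overlap between the groups. Here and below, fits with this covariate therefore cannot tell rod content apart from the vector. Without AAV-GFP replicate 3 the median of the 10 was 0.18 and that of all genes 0.01.

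**Figure D1:**
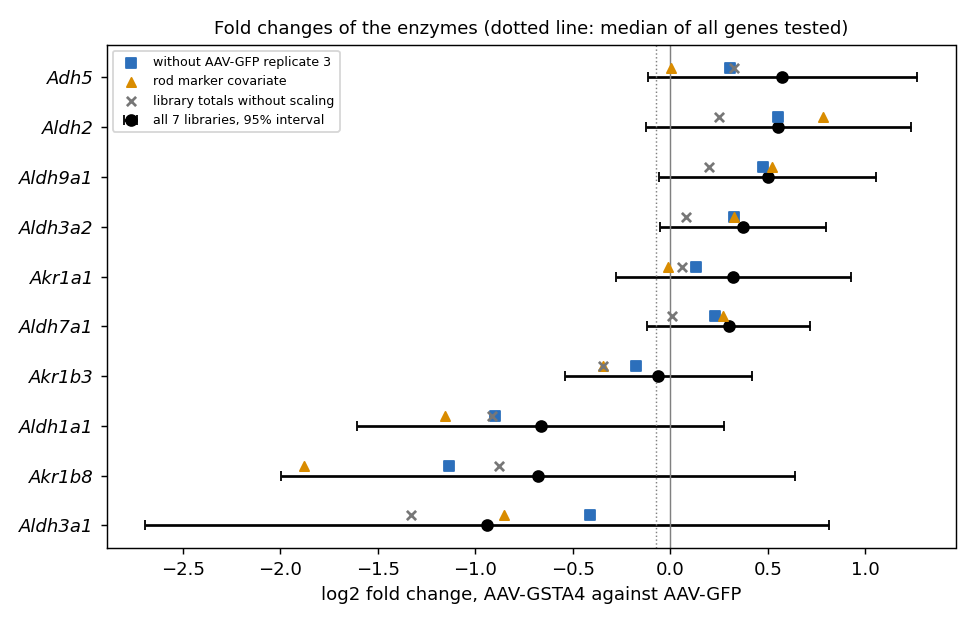
Fitted log2 fold change (horizontal axis) of each of the 10 enzymes, AAV-GSTA4 against AAV-GFP, with its 95% interval (black), and the value without AAV-GFP replicate 3 (square), with a rod marker covariate (triangle) and with library totals (cross). Every 95% interval includes 0. The values of Adh5 and Akr1a1 lie near 0 with the rod covariate (0.004 and -0.009), which does not overlap between the groups.

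Levels were compared between genes as CPM per kilobase of merged exon in the GENCODE M21 annotation. Akr1a1 stood first, with a mean over the 7 libraries of 259.7 CPM per kilobase ± 50.5 (SD, n = 7), and it lay above every other enzyme here in all 7 libraries. Aldh3a1 (61.5 ± 44.8) and Adh5 (61.2 ± 18.2) followed and did not differ beyond their spread. Aldh2 (36.1 ± 12.1) and Aldh9a1 (32.2 ± 8.86) also lay within 1 SD of each other. Aldh3a2 (16.1 ± 2.54) lay above Aldh7a1 (13.6 ± 1.80) in all 7 libraries, and Aldh1a1 (14.6 ± 6.82) did not differ from either beyond its spread. Akr1b3 (7.74 ± 1.11) was below Aldh7a1 in all 7 libraries, and Akr1b8 (3.32 ± 2.09) was below Akr1b3 in all 7. The order rests on the merged exon lengths, 8384 bases for Akr1b3 and 5181 for Aldh7a1, and the transcripts present were not examined. As CPM without division by length, Akr1b3 lay above Aldh7a1 in AAV-GFP replicates 1 and 2 and in AAV-GSTA4 replicate 2.

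**Figure D2:**
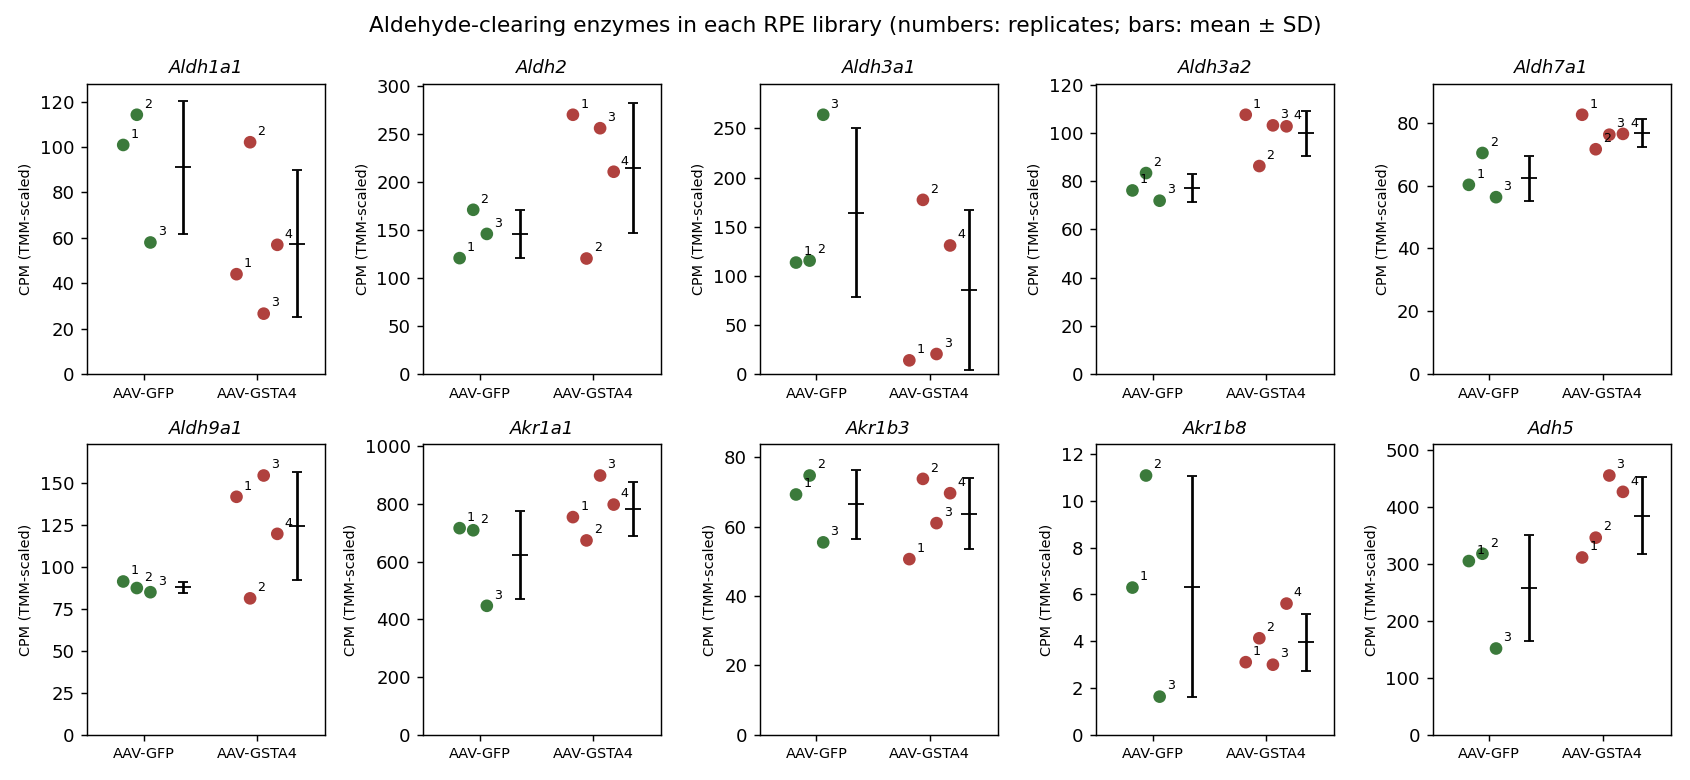
TMM-scaled CPM (vertical axis, from 0) of each enzyme in each library; points are libraries numbered by replicate, green for AAV-GFP (n = 3) and red for AAV-GSTA4 (n = 4), and bars show the mean and SD. Aldh3a2 and Aldh7a1 do not overlap between groups, and Aldh3a1 is lowest in AAV-GSTA4 replicates 1 and 3.

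Promoter sequences are shown for Aldh3a2, whose groups did not overlap, for Aldh9a1, which had the smallest p of the 10, and for Aldh1a1, which had a lower mean in AAV-GSTA4. RefSeq (GRCm38.p6) gave an entry for 6 of the 10 genes (Aldh1a1, Aldh3a2, Aldh9a1, Akr1a1, Akr1b8 and Adh5), 300 bases each, from 250 before the start site. Capitals mark the core of the antioxidant response element bound by NRF2 (TGACNNNGC) and of the xenobiotic response element bound by the aryl hydrocarbon receptor (GCGTG), searched on both strands, with no overlap between the 2 motifs. The windows are chr11:61267137-61267436 (minus strand) for Aldh3a2, chr1:167349741-167350040 (plus strand) for Aldh9a1 and chr19:20601718-20602017 (plus strand) for Aldh1a1, the last of which is the downstream of 2 start sites in RefSeq.
Aldh3a2: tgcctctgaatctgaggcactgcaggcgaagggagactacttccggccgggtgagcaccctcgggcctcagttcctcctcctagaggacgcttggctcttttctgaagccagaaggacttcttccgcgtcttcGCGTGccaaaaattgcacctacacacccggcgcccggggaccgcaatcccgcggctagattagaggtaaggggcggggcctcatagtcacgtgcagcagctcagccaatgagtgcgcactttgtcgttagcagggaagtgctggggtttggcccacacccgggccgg
Aldh9a1: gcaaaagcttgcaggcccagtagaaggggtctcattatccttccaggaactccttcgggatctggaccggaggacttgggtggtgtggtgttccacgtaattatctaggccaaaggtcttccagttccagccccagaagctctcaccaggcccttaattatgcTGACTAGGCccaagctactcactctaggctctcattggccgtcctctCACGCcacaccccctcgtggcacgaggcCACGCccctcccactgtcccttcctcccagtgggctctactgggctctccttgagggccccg
Aldh1a1: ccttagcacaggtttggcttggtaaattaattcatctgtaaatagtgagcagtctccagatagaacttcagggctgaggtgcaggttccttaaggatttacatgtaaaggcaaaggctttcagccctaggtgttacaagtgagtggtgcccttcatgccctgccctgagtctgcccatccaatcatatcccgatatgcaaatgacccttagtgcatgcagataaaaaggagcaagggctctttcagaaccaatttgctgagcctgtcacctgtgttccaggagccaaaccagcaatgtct
The Aldh9a1 window held 1 antioxidant element core, from 87 to 79 bases before the start site, and 2 xenobiotic element cores on the minus strand. The Aldh3a2 window held 1 xenobiotic element core, from 117 to 113 bases before the start site, and the Aldh1a1 window shown held neither. Among the 6 genes with an entry, which had 8 windows, 1 had the antioxidant core and 4 (Aldh3a2, Aldh9a1, Akr1b8 and Adh5) had the xenobiotic core in any window. Of 32851 promoter windows of that length, 12.4% and 32.4% held them. These are shares per window, so they cannot be set directly against the counts per gene. A search for 3 other promoter elements, also on both strands and not in capitals, found the letters TATAAA in 13.6%, CCAAT in 37.4% and GGGCGG in 35.7% of all windows. The Aldh3a2 window held the second and the third of these once each, the Aldh9a1 window the second once, and the Aldh1a1 window the second at 2 places. These are matches of letters, not binding sites.

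Among the aldehyde dehydrogenases, Aldh3a2 encodes the fatty aldehyde dehydrogenase of the endoplasmic reticulum, which oxidises long-chain aldehydes and is mutated in Sjögren-Larsson syndrome. It lies on chromosome 11 (61223417 to 61267464, minus strand, GRCm38, GENCODE M21). It had 76.2, 83.4 and 71.9 CPM in AAV-GFP replicates 1, 2 and 3, and 108, 86.3, 103 and 103 CPM in AAV-GSTA4 replicates 1, 2, 3 and 4, the order used throughout. All AAV-GSTA4 libraries thus lay above all AAV-GFP libraries. The log2 fold change was 0.37 ± 0.19 (SE; 95% interval -0.05 to 0.80), with an adjusted p of 0.463 in edgeR's test. Aldh7a1 encodes antiquitin, which acts in lysine breakdown and also oxidises lipid aldehydes. It was at 60.3, 70.4 and 56.3 CPM in AAV-GFP and at 82.6, 71.6, 76.2 and 76.5 CPM in AAV-GSTA4, again without overlap, although AAV-GFP replicate 2 and AAV-GSTA4 replicate 2 lay close together. Its log2 fold change was 0.30 ± 0.19 (SE; 95% interval -0.12 to 0.72), with an adjusted p of 0.533 in edgeR's test.

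These 2 were the enzymes here whose groups did not overlap and lay higher, 2 of 10 against 6.44% of all genes tested, and 0 of 10 lay lower without overlap, against 5.61%. The separation depended on the scaling. As CPM of the library total, Aldh3a2 was at 75.3 to 97.7 in AAV-GFP and 77.99 to 104 in AAV-GSTA4, and Aldh7a1 was at 59.5 to 76.5 and 64.7 to 79.7, so both overlapped. On that scale Akr1b3 was the enzyme without overlap, at 68.4 to 78.3 in AAV-GFP and 48.8 to 66.6 in AAV-GSTA4. The TMM factor of AAV-GFP replicate 3 was 1.36, and the other 6 factors were 0.868 to 1.05.

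Aldh2 encodes the mitochondrial dehydrogenase that oxidises acetaldehyde and 4-hydroxynonenal (chromosome 5, 121566027 to 121593824, minus strand). It was at 121, 171 and 146 CPM in AAV-GFP and at 269.9, 120.3, 256 and 211 CPM in AAV-GSTA4. Replicates 1, 3 and 4 of AAV-GSTA4 were above every AAV-GFP library, whereas replicate 2 was the lowest of all 7. The log2 fold change was 0.55 ± 0.30 (SE; 95% interval -0.12 to 1.23), with an adjusted p of 0.487 in edgeR's test. Aldh9a1 encodes the dehydrogenase of carnitine synthesis, which acts on trimethylaminobutyraldehyde (chromosome 1, 167349991 to 167368532, plus strand). Its libraries were at 91.5, 87.6 and 85.1 CPM in AAV-GFP, and 142, 81.4, 155 and 119.9 CPM in AAV-GSTA4. As for Aldh2, AAV-GSTA4 replicate 2 was the lowest of all 7, and the other 3 were above every AAV-GFP library. Its log2 fold change, 0.50 ± 0.25 (SE; 95% interval -0.06 to 1.06), had the smallest adjusted p of the 10 (adjusted p = 0.455, edgeR). Without AAV-GSTA4 replicate 2 the log2 fold changes were 0.76 for Aldh2 and 0.67 for Aldh9a1 (adjusted p = 0.355 and adjusted p = 0.350, edgeR), both at an unadjusted p under 0.05. That library also had the highest summed lens markers (135300 CPM, against 3168 to 27390 CPM in the others) and the most hGSTA4 (251 CPM). AAV-GSTA4 replicate 1, with 221.5 CPM of hGSTA4, had the most Aldh2, and AAV-GSTA4 replicate 3, with 2.65 CPM, had the most Aldh9a1. Whether the lens markers or hGSTA4 bear on the enzymes was not tested.

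Aldh3a1 is abundant in the ocular surface and is counted among the crystallins of the mouse cornea. Aldh1a1 turns retinaldehyde into retinoic acid. Aldh3a1 (chromosome 11, 61207537 to 61218421, plus strand, next to Aldh3a2) was at 114, 116 and 264 CPM in AAV-GFP and at 14.0, 177, 20.4 and 131 CPM in AAV-GSTA4. Replicates 1 and 3 of AAV-GSTA4 were the 2 lowest libraries, and replicates 2 and 4 lay within the AAV-GFP range. Its log2 fold change was -0.94 ± 0.78 (SE; 95% interval -2.69 to 0.82), with an adjusted p of 0.650 in edgeR's test, and leaving out 1 library moved it between -0.41 (without AAV-GFP replicate 3) and -1.58 (without AAV-GSTA4 replicate 2). It was -0.56 without AAV-GSTA4 replicate 1 and -0.60 without AAV-GSTA4 replicate 3. Aldh1a1 (chromosome 19, 20492715 to 20643465, plus strand) was at 101, 114 and 57.96 CPM in AAV-GFP and at 44.0, 102, 26.6 and 56.9 CPM in AAV-GSTA4. AAV-GSTA4 replicates 1 and 3 were again the lowest, and replicate 2 lay between AAV-GFP replicates 1 and 2. The log2 fold change was -0.67 ± 0.42 (SE; 95% interval -1.61 to 0.28), with an adjusted p of 0.538 in edgeR's test. It was -0.91 with library totals and -1.09 without AAV-GSTA4 replicate 2 (adjusted p = 0.307 and adjusted p = 0.350, edgeR), both at an unadjusted p under 0.05, and -1.16 with the rod covariate. In the other direction, it was -0.41 without AAV-GSTA4 replicate 3 and -0.47 without AAV-GFP replicate 2.

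Markers of cornea and conjunctiva varied in the same libraries, though not all in the same way. All 13 were detected, and their summed level was 719 to 1147 CPM in AAV-GFP and 401 to 1219 CPM in AAV-GSTA4, with the 2 lowest sums, 417.5 and 401 CPM, in AAV-GSTA4 replicates 1 and 3. For 8 of the 13 (Krt5, Krt14, Krt15, Krt13, Krt4, Krt6a, Trp63 and Dsg1a) these were the 2 lowest libraries, as for Aldh3a1 and Aldh1a1. The same held for 7.56% of all genes tested. Perp and Dsp, also of the 13, went the other way and were higher in AAV-GSTA4 without overlap, as were 6.44% of all genes tested. Perp was at 225, 241 and 113 CPM in AAV-GFP and at 296, 300, 256 and 261 CPM in AAV-GSTA4. It thus made up most of the sums in AAV-GSTA4 replicates 1 and 3. Dsp was at 13.75 to 15.3 CPM in AAV-GFP and at 20.3 to 24.35 CPM in AAV-GSTA4. Krt15, a keratin of limbal and conjunctival epithelium, was at 500.0, 502 and 252 CPM in AAV-GFP and at 44.7, 449, 51.8 and 552 CPM in AAV-GSTA4. Krt12, the keratin that defines corneal epithelium, was at 2.56, 19.9 and 112 CPM in AAV-GFP and at 2.00, 2.69, 0.999 and 0.184 CPM in AAV-GSTA4. AAV-GFP replicate 3 therefore had the most Krt12 as well as the most Aldh3a1, but AAV-GSTA4 replicate 4 had the least Krt12 with 131 CPM of Aldh3a1. Lum, also of the 13, was lowest in AAV-GFP replicate 3, at 8.84 CPM. AAV-GFP replicates 1 and 2 had 85.7 and 79.55 CPM of Lum, and the AAV-GSTA4 libraries had 22.7 to 59.5 CPM. Trp63 and Kera had no count in AAV-GSTA4 replicate 1. The part of ocular surface tissue in the levels of Aldh3a1 and Aldh1a1 was not tested.

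**Figure D3:**
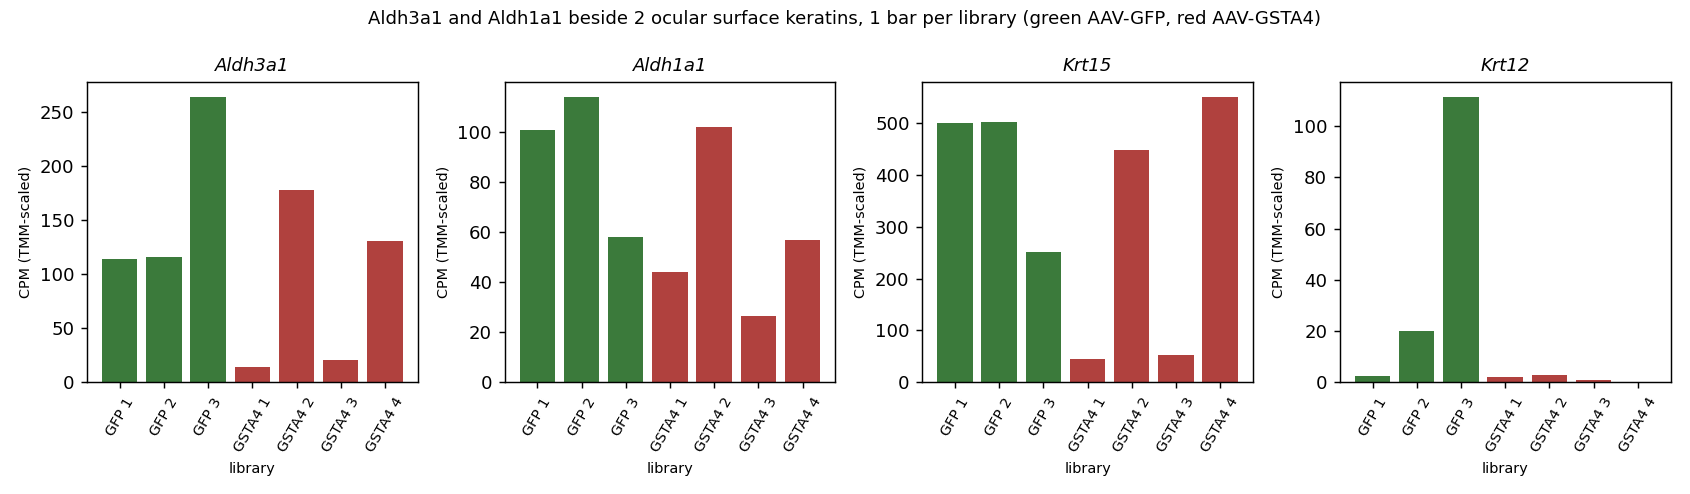
TMM-scaled CPM (vertical axes, from 0) of Aldh3a1, Aldh1a1, Krt15 and Krt12, 1 bar per library, green for AAV-GFP and red for AAV-GSTA4. Aldh3a1, Aldh1a1 and Krt15 are lowest in AAV-GSTA4 replicates 1 and 3, and Krt12 is highest in AAV-GFP replicate 3 (112 CPM).

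Among the reductases, Akr1a1 encodes aldehyde reductase, which reduces many aldehydes and in mice also serves ascorbate synthesis (chromosome 4, 116636510 to 116651680, minus strand). It was at 716, 709 and 447 CPM in AAV-GFP and at 755, 674, 899 and 798 CPM in AAV-GSTA4. AAV-GFP replicate 3 was the lowest library, and the other AAV-GFP libraries lay within the AAV-GSTA4 range. AAV-GSTA4 against AAV-GFP, the log2 fold change was 0.32 ± 0.27 (SE; 95% interval -0.28 to 0.93), with an adjusted p of 0.649 in edgeR's test. It was 0.13 without AAV-GFP replicate 3 and -0.009 with the rod covariate.

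Akr1b3 encodes aldose reductase, which turns glucose into sorbitol and also reduces 4-hydroxynonenal and its glutathione conjugate (chromosome 6, 34302434 to 34317478, minus strand). It was at 69.2, 74.7 and 55.5 CPM in AAV-GFP and at 50.6, 73.8, 61.0 and 69.6 CPM in AAV-GSTA4, with full overlap. Its log2 fold change was -0.06 ± 0.21 (SE), and the 95% interval, 0.688-fold to 1.34-fold, was among the narrowest here (adjusted p = 0.932, edgeR). Akr1b8, an aldose reductase-like gene related to human AKR1B10, lies beside it (chromosome 6, 34354119 to 34368463, plus strand). It was the scarcest, with 34 to 287 counts per library, and was at 6.29, 11.1 and 1.63 CPM in AAV-GFP and at 3.10, 4.13, 3.00 and 5.61 CPM in AAV-GSTA4. The AAV-GFP libraries held both the highest and the lowest value. The log2 fold change was -0.68 ± 0.59 (SE; 95% interval -2.00 to 0.64), with an adjusted p of 0.666 in edgeR's test. It was -1.13 without AAV-GFP replicate 3 (adjusted p = 0.352, edgeR) and 0.002 without AAV-GFP replicate 2. With the rod covariate it was -1.88 (adjusted p = 0.553, edgeR).

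Adh5 encodes class III alcohol dehydrogenase, which oxidises the glutathione adduct of formaldehyde and reduces S-nitrosoglutathione (chromosome 3, 138443093 to 138455499, plus strand). It was at 305, 318 and 152 CPM in AAV-GFP and at 312, 346, 456 and 427 CPM in AAV-GSTA4. AAV-GFP replicate 3 was the lowest library, and AAV-GSTA4 replicate 1 lay below AAV-GFP replicate 2. The log2 fold change was the highest of the 10, 0.58 ± 0.31 (SE; 95% interval -0.11 to 1.27), with an adjusted p of 0.479 in edgeR's test. It was 0.31 without AAV-GFP replicate 3 and 0.004 with the rod covariate.

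The enzymes did not vary as 1 block. Measured as the root mean square difference of log2 CPM after centring each gene on its mean over the 7 libraries, the most alike were Aldh3a2 and Aldh7a1 (0.07), followed by Aldh2 and Aldh9a1 (0.18) and by Aldh3a2 and Akr1a1 (0.19). The least alike were Aldh2 and Aldh3a1 (1.87). AAV-GFP replicate 3 was the lowest library for 5 of the 10 and the highest for 1, Aldh3a1. Among 11109 genes compared, the most alike were Ergic3 for Aldh3a2 (0.05), Ube2l3 for Aldh7a1 (0.06), Mest for Aldh2 (0.07), Mapk1ip1l for Aldh9a1 (0.06), Tm2d2 for Akr1a1 (0.06), Xrcc5 for Akr1b3 (0.05) and Emc3 for Adh5 (0.06). For Aldh3a1 it was Egln3 (0.20) and for Akr1b8 Slfn2 (0.18), beside own spreads of 1.49 and 0.81 that were wider than those of the other enzymes named here (0.18 to 0.48).

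**Figure D4:**
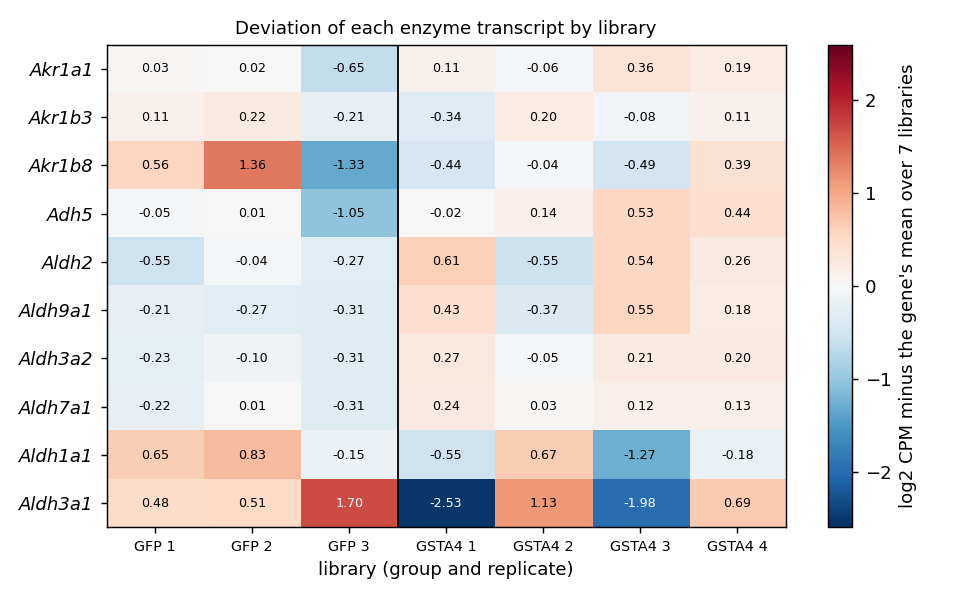
Log2 CPM of each enzyme (rows) in each library (columns) minus that gene's mean over the 7 libraries, with the value in each cell; the line separates AAV-GFP from AAV-GSTA4. Aldh3a1 spans from -2.53 in AAV-GSTA4 replicate 1 to 1.70 in AAV-GFP replicate 3, whereas Aldh3a2 and Aldh7a1 stay between -0.31 and 0.27.

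The rest of the pathway was read from 4 lists. Of 15 other aldehyde dehydrogenases, 14 were tested and 0 had an unadjusted p under 0.05 in edgeR's test, with 5 higher and 9 lower in mean and a median log2 fold change of -0.07; of all genes, 11.9% had such a p. Aldh1l1, the folate-linked dehydrogenase, had the smallest p of the list, with 38.3, 54.0 and 26.4 CPM in the AAV-GFP libraries and 58.0, 48.1, 66.1 and 58.2 CPM in the AAV-GSTA4 libraries, with overlap (adjusted p = 0.448, edgeR). Aldh6a1, the methylmalonate semialdehyde dehydrogenase of valine breakdown, was the most abundant per kilobase (43.4 CPM per kilobase). It was at 242, 231 and 104 CPM in AAV-GFP and at 254, 278, 309 and 337 CPM in AAV-GSTA4, without overlap (adjusted p = 0.466, edgeR).

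Of 31 other reductases and carbonyl enzymes, 25 were tested; 1 had an unadjusted p under 0.05 and a higher mean, 2 had such a p and a lower mean, and 0 passed after adjustment. For all genes these shares were 5.27% and 6.63%, and the median log2 fold change of the list was -0.10. Ptgr2, a prostaglandin reductase, was at 46.2, 62.9 and 29.2 CPM in AAV-GFP and at 59.1, 72.5, 76.4 and 79.4 CPM in AAV-GSTA4, with overlap (log2 fold change 0.64 ± 0.27 SE, adjusted p = 0.402, edgeR). It was 0.21 with the rod covariate and 0.40 without AAV-GFP replicate 3, and had an unadjusted p under 0.05 in 8 of 18 alternatives. Akr1b10, another aldose reductase-like gene, was at 23.0, 33.8 and 26.2 CPM in AAV-GFP and at 15.8, 16.0, 11.4 and 20.3 CPM in AAV-GSTA4, without overlap (log2 fold change -0.80 ± 0.27 SE, adjusted p = 0.363, edgeR). Rdh12, a retinol dehydrogenase of photoreceptors that also reduces lipid aldehydes, was at 106, 154 and 275 CPM in AAV-GFP and at 81.2, 112, 79.1 and 56.6 CPM in AAV-GSTA4, with overlap (log2 fold change -1.12 ± 0.35 SE, adjusted p = 0.363, edgeR). Its highest library was AAV-GFP replicate 3, as for the rod markers. Rdh12 had an unadjusted p under 0.05 in 16 of 18 alternatives. With the rod covariate its log2 fold change was -0.03, but rod content and vector cannot be told apart in that fit. Whether rod content bears on Rdh12 was not tested. Cbr2, a carbonyl reductase, was the most abundant of the list per kilobase (75.4 CPM per kilobase). It was at 168, 94.2 and 53.9 CPM in AAV-GFP and at 18.9, 96.2, 15.5 and 254 CPM in AAV-GSTA4, lowest in the same AAV-GSTA4 replicates 1 and 3 as Aldh3a1.

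Of 20 genes for enzymes that form aldehydes or supply oxidisable lipid, 19 were tested, 3 had an unadjusted p under 0.05 and a higher mean, 0 had such a p and a lower mean, and 0 passed after adjustment (median log2 fold change 0.02). Of all genes, 5.27% had such a p and a higher mean and 6.63% a lower one. Por, the reductase that feeds electrons to microsomal cytochromes P450, was at 93.1, 74.4 and 92.7 CPM in AAV-GFP and at 140.2, 118, 172 and 129 CPM in AAV-GSTA4, without overlap (log2 fold change 0.69 ± 0.22 SE, adjusted p = 0.363, edgeR). It was also the most abundant of the list per kilobase (29.1 CPM per kilobase). Lpcat3, which places polyunsaturated chains into phospholipids, was at 47.4, 41.8 and 24.1 CPM in AAV-GFP and at 69.8, 52.4, 87.2 and 66.0 CPM in AAV-GSTA4, without overlap (log2 fold change 0.87 ± 0.28 SE, adjusted p = 0.363, edgeR). With the rod covariate its log2 fold change was 0.47, no longer at an unadjusted p under 0.05. With that covariate Por was at 0.76, still at such a p, and Smox at 0.82, no longer at such a p. With library totals they were at 0.38 and 0.31, neither at such a p. Over 18 alternatives, such a p was found in 17 for Lpcat3, 15 for Por and 9 for Smox. Smox, spermine oxidase, whose products include an aldehyde, overlapped by AAV-GSTA4 replicate 2 (41.9 CPM), with AAV-GFP at 38.1 to 51.5 CPM and the other AAV-GSTA4 libraries at 69.9 to 81.6 CPM (log2 fold change 0.64 ± 0.27 SE, adjusted p = 0.400, edgeR).

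Of 19 regulators and targets of the aryl hydrocarbon receptor and NRF2, 17 were tested, 0 had an unadjusted p under 0.05 and a higher mean, 1 had such a p and a lower mean, and 0 passed after adjustment (median log2 fold change -0.06). The shares over all genes were again 5.27% and 6.63%, so 1 of 17 is near the background. The 1 was Cyp1b1, a target of the aryl hydrocarbon receptor, at 16.7, 28.5 and 11.4 CPM in AAV-GFP and at 3.53, 12.4, 6.23 and 12.1 CPM in AAV-GSTA4, with overlap (log2 fold change -1.14 ± 0.48 SE, adjusted p = 0.401, edgeR). Cyp1a1, the classic target of that receptor, had no count in any library. Nqo1, an NRF2 target and the most abundant of the list per kilobase (120.5 CPM per kilobase), was at 175, 175 and 51.9 CPM in AAV-GFP and at 182, 174, 286 and 267 CPM in AAV-GSTA4, with overlap (log2 fold change 0.76 ± 0.41 SE, adjusted p = 0.485, edgeR).

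**Figure D5:**
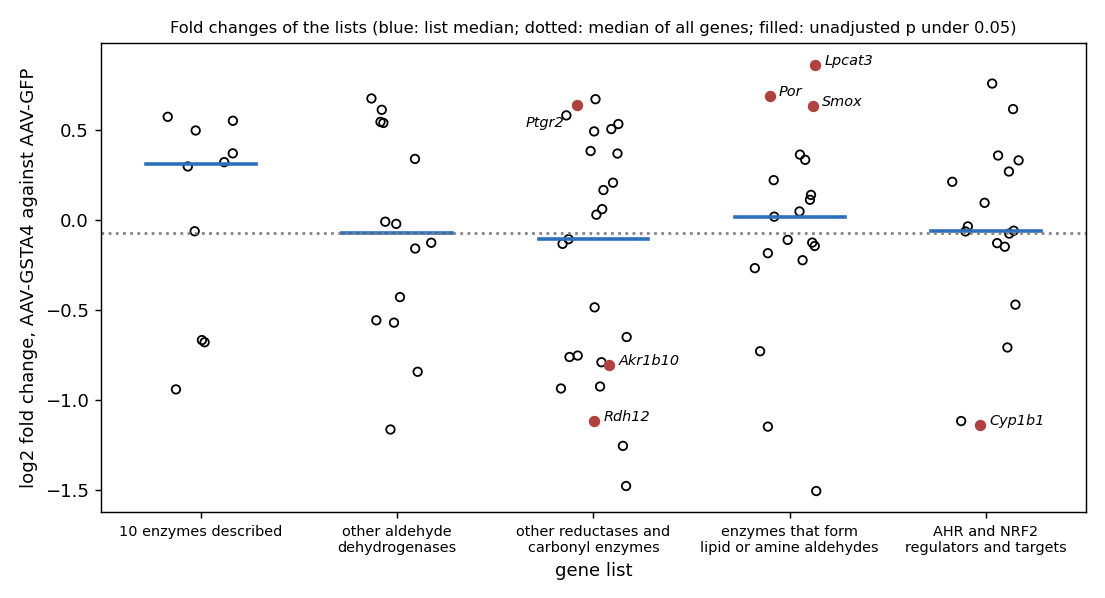
Fitted log2 fold change (vertical axis) of each tested gene in the 5 lists; filled points have an unadjusted p under 0.05 in edgeR's test, blue lines are list medians and the dotted line is the median of all genes (-0.07). The 7 filled points are labelled, and none of the 10 enzymes described here is among them.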

How the data were processed

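Per the labels' protocols, libraries were made with a low-input kit for full-length cDNA and a transposase-based kit, with no mention of molecular identifiers. The authors deposited raw read counts per gene symbol for each of the 7 libraries. Per the submitters' processing notes, STAR 2.7.1a, featureCounts 1.6.2 and the builds GRCm38 (mm10) and GRCh38 (hg38) were used; strand setting, annotation and multi-mapping rule are not given in the sources used here. Columns were matched by library name; replicates are named by title. Of the rows, 26 repeat a symbol; the row with the highest total kept it.

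Groups were compared in edgeR 4.0.16 (R 4.3.3) by the quasi-likelihood test over all 7 libraries with TMM scaling, edgeR's default expression filter, robust dispersions and no block. Adjusted p-values are Benjamini-Hochberg over all 15075 genes. SE is the fold change over the square root of F, and intervals use its degrees of freedom. Log2 CPM used a prior count of 2; 3 counts correspond to 0.111 to 0.176 CPM. Counting error is not the limit: the biological coefficient of variation was 48.2%. Exon lengths came from GENCODE M21. In 50-base windows of the annotated transcripts, 13.6% of Akr1b3 (mostly with Gm38056), 6.35% of Aldh7a1, 3.06% of Aldh1a1 (Aldh1a7) and 2.90% of Akr1b8 (mostly Akr1b10) also occurred in another gene; the other 6 shared 1.56% or less. Every pair of libraries differed by more than sampling noise (chi-square per gene at least 57.5).

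The members and lists were chosen with earlier results of these data known. Named genes were the 10 enzymes, the transgenes and Gsta4, from each list up to 3 genes per direction at an unadjusted p under 0.05 (otherwise the smallest p), the most abundant gene per kilobase, and the most alike gene of each enzyme (that of Aldh1a1 is not reported here). Krt15, Krt12 and other markers, Cyp1a1 and the genes compared with Aldh3a1 were named after their values were seen. Alternatives were other scalings, filters, tools (DESeq2 1.42.0, limma-voom 3.58.1), replicate blocks, covariates and each library left out. The limma-voom fit used quality weights for the libraries. On simulated counts for this comparison (14752 genes), 156 of 200 genes changed 4-fold were recovered, and 8 unchanged genes were called. Changes of the size fitted for the 10 enzymes (0.522-fold to 1.49-fold) were not simulated, so recovery at that size is not known.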

Additional observations from a re-analysis of the deposited data

How the results depend on the processing

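Over 18 alternatives, 0 of the 10 enzymes passed an adjusted p of 0.05. At an unadjusted p under 0.05 there were 1 with library totals (Aldh1a1), 3 with limma-voom (Aldh9a1, Akr1b8 and Aldh1a1), 2 with the replicate block by sample title (Aldh3a1 and Aldh1a1), 3 with the replicate block by library name (Aldh3a1, Aldh2 and Aldh1a1), and from 0 to 3 with a library left out (Akr1b8 without AAV-GFP replicate 3; Aldh9a1, Aldh2 and Aldh1a1 without AAV-GSTA4 replicate 2). Of all genes, 201 passed the adjusted threshold in DESeq2, 1 with either replicate block, 1 with the rod covariate and from 0 to 1 with a library left out (1 without AAV-GSTA4 replicate 3). Unadjusted, there were 1794 in the edgeR fit (44.3% of them higher), 3293 with limma-voom, 849 and 1148 with the replicate block by title and by library name, 2400 with library totals (11.1% higher) and 1032 (without AAV-GSTA4 replicate 3) to 1987 with a library left out. The cause of these differences was not tested. Signs were kept except for Akr1a1 with the rod covariate (-0.009), Akr1b3 with a library left out (-0.173 to 0.054; 0.036 without AAV-GFP replicate 2 and 0.054 without AAV-GSTA4 replicate 1) and Akr1b8 without AAV-GFP replicate 2 (0.002; -1.13 to 0.002 with each library left out). Same-numbered libraries did not deviate together (correlations of -0.09 to 0.01 by title and -0.13 to 0.01 by library name), and 0 and 2 of 6 libraries correlated best with their own number. With the replicate block by title and by library name, the log2 fold change of Aldh3a1 was -2.19 and -2.18 (-0.94 without a block) and the adjusted p of hGSTA4 was 0.00827 and 0.0496.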

Other observations

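The library pattern of Aldh3a1, with AAV-GSTA4 replicates 1 and 3 lowest, was shared by 12 of the 75 tested genes of the 4 pathway lists, against 7.56% of all genes tested. The 12 were Aldh1a7, Aldh3b2, Akr1b7, Akr1b10, Akr1c13, Adh1, Adh6a, Adh7, Cbr2, Ptgr1, Alox12 and Cyp1b1. They were picked out after the values of Aldh3a1 had been seen. Aldh3b2, an aldehyde dehydrogenase of the same family as Aldh3a1, was nearest to it of 58 pathway genes (root mean square difference 0.54 log2), at 16.7, 12.4 and 14.7 CPM in AAV-GFP and 1.42, 8.35, 1.59 and 14.6 CPM in AAV-GSTA4. Adh6a was at 71.4, 35.1 and 48.9 CPM in AAV-GFP and at 5.47, 31.8, 3.23 and 46.2 CPM in AAV-GSTA4. Adh7, a retinol-oxidising alcohol dehydrogenase of surface epithelia, was at 95.4, 64.3 and 33.2 CPM in AAV-GFP and at 6.63, 39.4, 6.64 and 81.6 CPM in AAV-GSTA4. None of these 3 passed edgeR's test between the groups (adjusted p = 0.533, 0.528 and 0.659).

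Libraries also differed in Y-linked transcripts (Ddx3y, Uty, Kdm5d and Eif2s3y), which were at 307 to 465 CPM in AAV-GFP replicate 1 and AAV-GSTA4 replicates 3 and 4 and at 2.83 CPM or lower in the other 4. Within the libraries that had them, Aldh3a2 was at 76.2 CPM in AAV-GFP and at 103 CPM in both AAV-GSTA4 libraries, and Aldh2 at 121 CPM and 211 to 256 CPM. Within the others, Aldh3a2 was at 71.9 to 83.4 CPM in AAV-GFP and 86.3 to 108 CPM in AAV-GSTA4, and Aldh2 at 146 to 171 CPM and 120.3 to 269.9 CPM.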
